A study of Mus musculus with 43 samples.

Results

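The ephrin, Slit and netrin guidance genes are 39 protein-coding genes picked by their symbols: the Eph receptors (EphA and EphB), their ligands the ephrins (Efna and Efnb genes), the Slits and their Robo receptors, the netrins Ntn1, Ntn3, Ntn4 and Ntn5, the netrin-G genes Ntng1 and Ntng2, and the netrin receptors Unc5a to Unc5d and Dcc. The families were chosen with earlier results of these data known. They were 39 of the 56980 genes in the table of counts, 21959 of which were protein-coding.

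Guidance molecules steer growing axons and migrating neurons by attracting or repelling them. Ephrins are tied to the cell membrane, so that they meet Eph receptor tyrosine kinases on touching cells, and both partners can signal inward. Slits are secreted and mainly repel cells that carry Robo receptors. Secreted netrins attract through Dcc and repel where Unc5 receptors take part, whereas netrin-G proteins are anchored to the membrane and bind partners at synapses. In the cerebral cortex these families are known for roles in radial migration, in callosal axons crossing the midline and in the mapping of connections.

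Expression was measured by RNA-seq in GFP+ cells sorted from the somatosensory cortex of C57BL6J RccHsd mice, after in utero electroporation at the time when L2/3 neurons are born. At embryonic day 19 (E19) there were 4 female (L2/3^F) and 4 male (L2/3^M) libraries of each of 3 genotypes: WT, Cux1 KO and Cux2 KO. At postnatal day 4 (P4) there were 3 female and 3 male libraries of WT and of Cux2 KO and 2 male libraries of Cux1 KO, with no Cux1 KO females. At postnatal day 7 (P7) there were 2 female and 3 male WT libraries. WT and germline mutant embryos received pCAG-GFP. The Cux1 KO mice of E19 were Cux1ΔC/ΔC, a germline allele whose product lacks the C-terminal part, whereas Cux1 KO at P4 was made by pCAG-iCre with pCALNL-GFP in mice with a floxed Cux1 allele over a deleted one, so that the deletion was completed in electroporated cells. Cux2 KO mice were Cux2−/− in the germline at both stages. In the germline mutants every cell carried the mutation, and effects that arise in the sorted cells cannot be told apart from effects of their surroundings. Stage cannot be told apart from sequencing round for E19 (first round) against P4 and P7 (second round), nor from allele for Cux1 KO. The study also reports more death of Cux1 KO neurons during dissociation.

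Total counts ran from 13321095 to 20715732 per library at E19 (n = 24), from 19499125 to 60559585 at P4 (n = 14) and from 15312029 to 27633827 at P7 (n = 5). Levels are given as CPM, the counts of a gene scaled to library size after TMM normalization. The 2 Cux1 KO libraries of P4 stood apart, with 17049 and 19115 genes detected against 20844 to 22546 in WT males of that stage. The 39 genes held 0.280% to 0.370% of the counts of a library at E19, 0.0458% to 0.0975% at P4 and 0.0490% to 0.0575% at P7, and 22 of them had counts in all 43 libraries. As a check of the label, 10 genes of upper-layer neurons summed to 4302 ± 543 (SD, n = 8) CPM in WT at E19, 909 ± 63.7 (SD, n = 6) at P4 and 582 ± 65.01 (SD, n = 5) at P7, and none of them was at 0 in all libraries of a stage. In the same WT libraries 11 genes of astrocytes and radial glia summed to 2554 ± 356 (SD, n = 8), 5122 ± 1058 (SD, n = 6) and 9278 ± 1661 (SD, n = 5) CPM, and 9 genes of the oligodendrocyte lineage to 624 ± 93.3 (SD, n = 8), 1886 ± 795 (SD, n = 6) and 4405 ± 688 (SD, n = 5). Against a label of neurons alone, the postnatal libraries thus held more RNA of glial genes than the E19 libraries, and they are called by their label below.

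Cux1 and Cux2, the transcription factors deleted in the mutants, were counted over the whole gene, so that their counts do not single out the deleted part and check the labels weakly. At E19 Cux1 was at 425, 506, 346 and 414 CPM in the WT female libraries and at 467, 361, 464 and 312 in the males, against 288, 298, 312 and 349.6 in Cux1 KO females and 378, 310.0, 339 and 373 in Cux1 KO males. Of the 8 Cux1 KO libraries 4 (females 1, 2 and 3 and male 2) lay below all WT libraries, female 3 by less than 1 CPM, and 4 within the WT range, at a log2 fold change (log2FC) of −0.33 ± 0.08 (SE, edgeR adjusted p = 0.0864). Cux2 was at 448, 492, 371 and 514 CPM in WT females and 517, 414, 385 and 332 in WT males at E19, against 343, 280.0, 417 and 358 in Cux2 KO females and 388, 408, 267 and 343 in Cux2 KO males. These groups overlapped as well, with a log2FC of −0.31 ± 0.10 (SE, edgeR adjusted p = 0.353). At P4 Cux1 was at 88.1, 157 and 99.5 CPM in WT males and 83.2 and 168 in Cux1 KO males, and Cux2 at 36.9, 34.5 and 28.1 in WT females, 31.7, 31.4 and 46.4 in WT males, 32.9, 29.6 and 51.2 in Cux2 KO females and 36.1, 60.5 and 35.6 in Cux2 KO males. None of these differences was called. In Cux1 KO males at P4, Cux2 was at 80.4 and 96.6 CPM, above the 3 WT males, with a log2FC of 1.26 ± 0.26 (SE, edgeR adjusted p = 0.0905).

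At E19 the ephrin-B ligands headed the order of levels in WT libraries when counts were scaled to exon length (CPM per kb of exon, transcripts of a gene merged, n = 8). Efnb2 stood at 47.5 ± 3.58 (SD) CPM per kb, Efnb1 at 44.6 ± 5.18 and Efnb3 at 41.3 ± 8.56, levels that differ by less than their summed SDs. Next in order came the netrin receptor Unc5d at 29.3 ± 3.96, the EphA receptor Epha4 at 28.04 ± 3.26, the ligand Efna2 at 25.5 ± 2.03, Ntng2 at 22.8 ± 6.06, Epha3 at 22.2 ± 4.19 and Robo2 at 20.2 ± 4.07 CPM per kb, each within the spread of its neighbour in the order. Ligands and receptors thus shared the upper end of the order. The highest Slit was Slit1 at 3.82 ± 1.01 CPM per kb, the highest netrin Ntn4 at 8.72 ± 2.01, and Dcc stood at 3.54 ± 0.357. By P7 (n = 5) the order was led by Efna2 at 17.4 ± 3.21 and Epha4 at 11.3 ± 0.902 CPM per kb, followed by the receptor Ephb1 at 6.47 ± 0.595 and Efnb1 at 6.46 ± 1.44.

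The rarest member of each family was also looked at on the same scale. In WT at E19 they were Epha1 at 0.0506 ± 0.0475, Ephb4 at 4.02 ± 0.610, Efna5 at 0.938 ± 0.246, Efnb3, Slit3 at 0.0217 ± 0.0212, Robo3 at 0.0307 ± 0.0288, Ntn5 at 0.00419 ± 0.0119, Ntng1 at 0.816 ± 0.179 and Unc5b at 1.23 ± 0.370 CPM per kb, named for the lowest mean over all WT libraries. Epha1, Slit3, Robo3 and Ntn5 were close to the detection limit. Over the 43 libraries, counts above 0 were found for Epha1 in 28, for Slit3 in 25, for Robo3 in 23 and for Ntn5 in 5, and the highest single values were 0.651 CPM for Epha1, 2.99 for Slit3, 1.37 for Robo3 and 0.666 for Ntn5. Epha2 and Epha6 were scarce too, with counts in 33 and 31 libraries and at most 2.38 and 1.49 CPM.

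**Figure D1:**
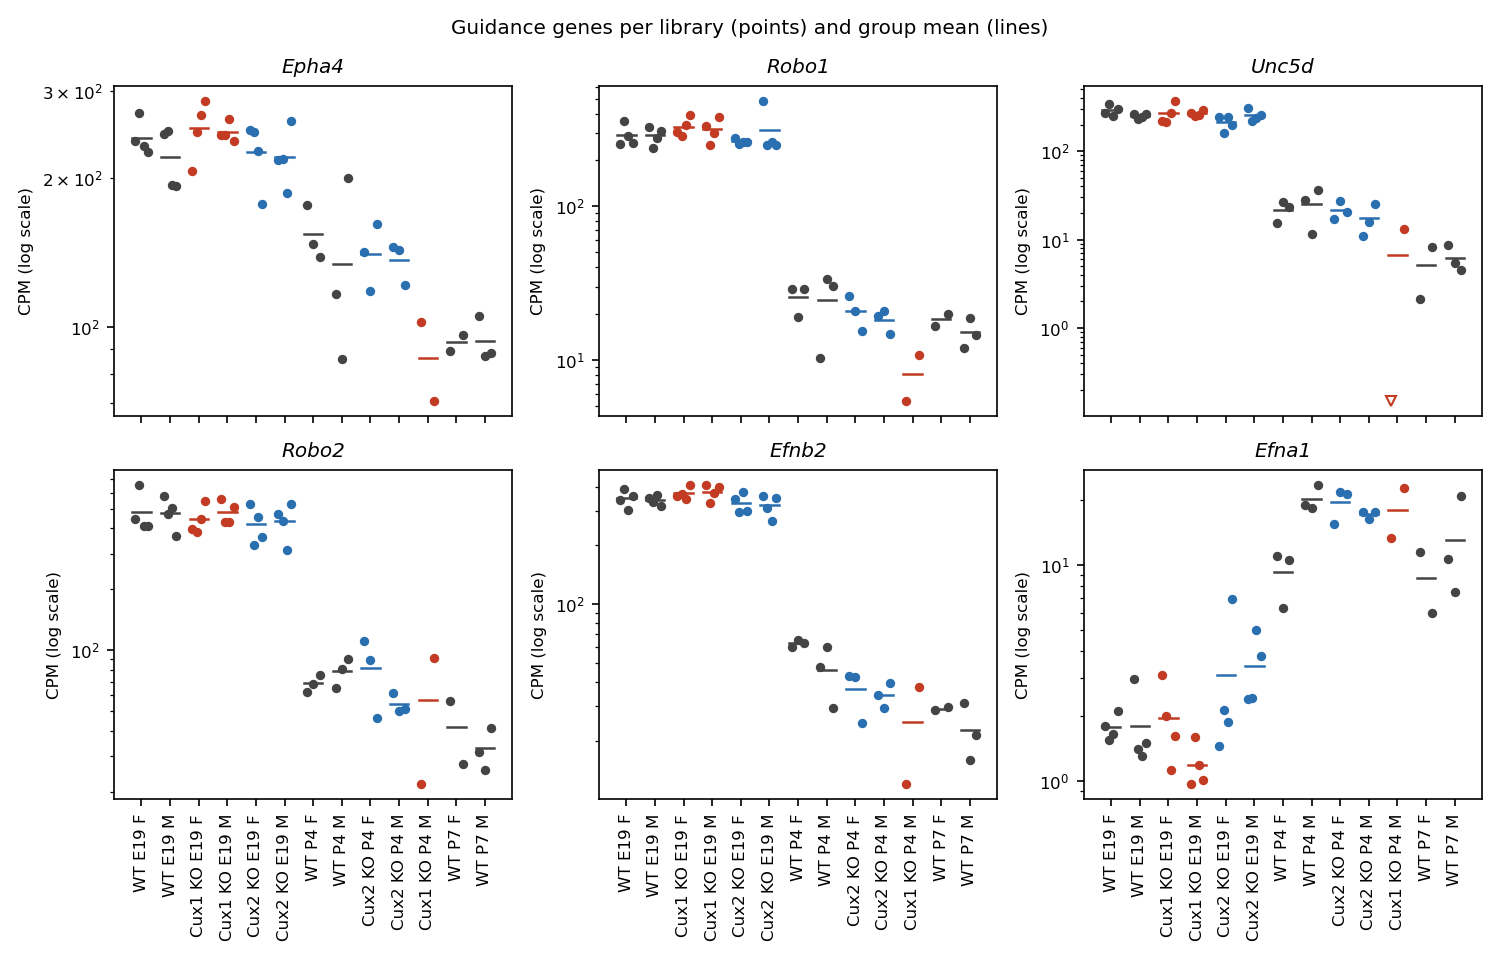
CPM on a log scale for 6 guidance genes in 13 groups (F, females; M, males); each point is 1 library, lines are group means, black is WT, red Cux1 KO and blue Cux2 KO, and the open triangle is a library with 0 counts of Unc5d, drawn at the level of 3 counts. Epha4, Robo1, Unc5d, Robo2 and Efnb2 are lower at P4 than at E19 in the means of all genotypes, and Efna1 is higher.

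The first question was how the guidance genes change as L2/3 neurons pass from the end of migration to early circuit formation, in WT from E19 to P4. Guidance genes fell broadly: their summed level went from 3364 ± 330.5 CPM (SD, n = 8) at E19 to 765 ± 62.7 at P4 (n = 6). Epha1, Epha2, Slit3, Robo3 and Ntn5 did not pass the filter on low counts. Of the 34 members that did, 26 were called by edgeR (adjusted p under 0.05 and absolute log2FC over 1), 24 down and 2 up, while 45.9% of 20091 genes were called. Their median log2FC was −1.75 against 0.04 over all genes tested. Library sizes scaled by DESeq2 in place of TMM gave 24 down and 2 up as well. In sorted bulk samples, fewer cells of a type and less RNA per cell cannot be told apart.

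Among the receptors for ephrins, all 5 EphB genes fell and 4 of 7 EphA genes tested did. The pseudokinase receptor Ephb6 had 84.8, 109.6 and 121 CPM (lowest, median, highest of 8 libraries) at E19 and 3.27, 6.71 and 8.28 CPM at P4 (6 libraries), a log2FC of −4.05 ± 0.21 (SE, edgeR adjusted p = 6.87e-10). Ephb2, a receptor for ephrin-B, fell from 137, 164 and 199 CPM to 8.95, 11.9 and 19.97 CPM, by log2FC −3.61 ± 0.20 (SE, edgeR adjusted p = 8.63e-10). For both genes the stages did not overlap. Epha3 and Epha5, which bind ephrin-A, changed by −2.96 ± 0.33 (SE, edgeR adjusted p = 1.44e-06) and −1.52 ± 0.10 (SE, edgeR adjusted p = 4.61e-09). Epha4, a receptor for both ephrin classes, went from 193, 235 and 271 CPM to 85.9, 143 and 199.9 CPM, ranges that overlap, and its log2FC of −0.68 ± 0.16 (SE, edgeR adjusted p = 0.00139) missed the fold threshold. The neural Epha8 was at 1.43, 3.20 and 6.08 CPM at E19, and at P4 in 1 library of 6, WT female 1, at 1.62 CPM, and at 0 in the other 5, a log2FC of −4.50 ± 1.53 (SE, edgeR adjusted p = 0.0173). Without WT P4 female 1 the fitted log2FC of Epha8 was −9.64, which is no measure of size since the remaining P4 libraries were at 0. Epha10, another pseudokinase, was at 0.471, 1.65 and 2.10 CPM and then at 0, 0.0312 and 0.826 CPM, with a log2FC of −3.65 ± 1.05 (SE, edgeR adjusted p = 0.00647), or −4.24 without WT P4 female 1.

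The ligands split. All 3 ephrin-B genes fell, Efnb3 from 102, 145 and 200.1 CPM to 7.67, 9.56 and 21.5 CPM and Efnb2 from 305, 346 and 387 CPM to 29.3, 60.4 and 65.4 CPM, without overlap of the stages. Their log2FCs were −3.65 ± 0.24 (SE, edgeR adjusted p = 7.18e-09) and −2.67 ± 0.15 (SE, edgeR adjusted p = 1.03e-09), and that of Efnb1 was −1.62 ± 0.12 (SE, edgeR adjusted p = 2.28e-08). Of the ephrin-A ligands, Efna3 and Efna4 fell and Efna1 and Efna5 were the 2 members that rose. Efna1 went from 1.30, 1.60 and 2.97 CPM at E19 to 6.29, 14.6 and 23.4 CPM at P4, a log2FC of 2.95 ± 0.27 (SE, edgeR adjusted p = 1.68e-07). Efna5 went from 3.53, 4.62 and 7.60 CPM to 9.24, 18.4 and 35.2 CPM, a log2FC of 1.97 ± 0.25 (SE, edgeR adjusted p = 4.81e-06). Every P4 library lay above every E19 library for both. The genes Efna1 (chromosome 3, 89179037 to 89188449, GRCm39), Efna3 (89221203 to 89230272) and Efna4 (89240695 to 89245373) are neighbours on the minus strand, yet Efna3 had a log2FC of −3.56 ± 0.41 (SE, edgeR adjusted p = 1.94e-06) and Efna4 of −1.25 ± 0.19 (SE, edgeR adjusted p = 3.52e-05). Efna2 stayed under the fold threshold at −0.90 ± 0.18 (SE, edgeR adjusted p = 0.000466).

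Slits and Robos fell together. The receptor Robo1 had 240.4, 283 and 359.6 CPM at E19 and 10.3, 28.9 and 33.4 CPM at P4, a log2FC of −3.52 ± 0.24 (SE, edgeR adjusted p = 8.19e-09), and Robo2 had 364, 456 and 656 CPM and then 62.2, 71.95 and 90.7 CPM, a log2FC of −2.70 ± 0.15 (SE, edgeR adjusted p = 8.36e-10). Neither overlapped between the stages. Their ligands Slit1 and Slit2 were lower at P4 in all libraries too, with log2FCs of −3.59 ± 0.65 (SE, edgeR adjusted p = 0.000197) and −2.59 ± 0.33 (SE, edgeR adjusted p = 6.09e-06). Slit3 and Robo3 did not pass the edgeR filter. DESeq2, and edgeR with no filter or with all groups in 1 fit, called Robo3 and also Epha2.

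In the netrin system the receptors Unc5a, Unc5b and Unc5d fell, whereas Unc5c and Dcc were not called. Unc5d, a mark of young upper-layer neurons, had 229, 263 and 344 CPM at E19 and 11.6, 24.9 and 36.7 CPM at P4, a log2FC of −3.50 ± 0.24 (SE, edgeR adjusted p = 8.09e-09). Unc5a had 81.8, 86.8 and 117 CPM and then 0.108, 1.87 and 5.46 CPM, a log2FC of −5.61 ± 0.52 (SE, edgeR adjusted p = 2.29e-07). Both dropped without overlap. Dcc, the attractive netrin receptor, went from 41.4, 46.5 and 53.8 CPM to 11.1, 32.2 and 44.3 CPM with overlap, at a log2FC of −0.60 ± 0.24 (SE, edgeR adjusted p = 0.0379), under the fold threshold. Ntng2, the called member of lowest log2FC with all libraries, had 69.3, 79.9 and 141 CPM at E19 and 0, 0.466 and 2.03 CPM at P4, a log2FC of −6.90 ± 0.77 (SE, edgeR adjusted p = 1.46e-06). Without WT P4 male 1 its log2FC was −7.96. Its paralog Ntng1 gave 0.54 ± 0.28 (SE, edgeR adjusted p = 0.0991). Ntn4 and Ntn3 fell, with log2FCs of −2.98 ± 0.30 (SE, edgeR adjusted p = 5.93e-07) and −1.64 ± 0.43 (SE, edgeR adjusted p = 0.00372), and Ntn1, the classic attractant, was at 0.59 ± 0.31 (SE, edgeR adjusted p = 0.111). Ntn3 was at −2.42 without WT P4 male 2, and DESeq2 did not call it with or without its prior.

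Besides Epha4, Efna2 and Dcc, Epha7 passed the adjusted p but not the fold threshold, at −0.94 ± 0.31 (SE, edgeR adjusted p = 0.0144), and Epha6, Ntn1, Ntng1 and Unc5c passed neither. Leaving out 1 library at a time gave 25 to 28 members called. Ephb3, called at −1.04 ± 0.19 (SE, edgeR adjusted p = 0.000209), went under the fold threshold without WT P4 female 1 (−0.94), female 3 (−0.96) or male 3 (−0.94). Without WT P4 female 2 the count was 28, with Efna2 and Epha7 added, and Epha6 was called without female 3 and Epha7 without male 3, each at a count of 26. By exon length, the 4998 longest genes tested had a median log2FC of −0.24 and the 4999 shortest 0.24, and 14 of the 34 members were among the longest and 2 among the shortest.

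Of the genes that work with these receptors more fell than rose, where over all genes tested 23.3% fell and 22.6% rose. Of 31 effectors of Eph receptors (1 further symbol, Anks1a, was not in the table), 18 of 30 tested were called, 15 down and 3 up, with the adaptor Nck2 going from 80.2 ± 8.33 (SD, n = 8) to 3.80 ± 1.23 (SD, n = 6) CPM at a log2FC of −4.40 ± 0.20 (SE, edgeR adjusted p = 1.42e-10) and the Rac activator Tiam1 at −3.40 ± 0.22 (SE, edgeR adjusted p = 6.21e-09). The scaffold Grip2, which binds ephrin-B, had a log2FC of −6.45 ± 0.97 (SE, edgeR adjusted p = 3.26e-05), and the exchange factor Arhgef16, below 2 CPM at both stages, −3.48 ± 1.32 (SE, edgeR adjusted p = 0.0304). Of 18 partners of Slit and Robo, 12 were called, 11 down and 1 up. They included the Robo effector Srgap1 at −2.38 ± 0.19 (SE, edgeR adjusted p = 5.36e-08), the actin regulator Evl at −2.36 ± 0.10 (SE, edgeR adjusted p = 7.44e-11) and the heparan sulfate carriers Gpc1 at −2.77 ± 0.18 (SE, edgeR adjusted p = 5.1e-09) and Sdc3 at −2.58 ± 0.26 (SE, edgeR adjusted p = 6.03e-07). Of 22 netrin partners, 12 were called, 10 down and 2 up, where 45.9% of all genes tested were called. Among these the ubiquitin ligase gene Trim67 stood at −4.23 ± 0.28 (SE, edgeR adjusted p = 7.23e-09), the netrin antagonist Draxin at −2.30 ± 0.16 (SE, edgeR adjusted p = 1.14e-08) and Dscaml1 at −2.02 ± 0.20 (SE, edgeR adjusted p = 4.99e-07), whereas Lrrc4c, the postsynaptic ligand of netrin-G1, rose at 2.18 ± 0.30 (SE, edgeR adjusted p = 1.42e-05).

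Markers of cell types moved over the same interval, in which 45.9% of all genes tested were called, 22.6% up and 23.3% down. By the same test 8 of 10 upper-layer genes were down, and 5 of 11 astrocyte and radial glia genes were up and 3 down. Of 9 oligodendrocyte lineage genes 5 were up and 1 down. The upper-layer sum had 3572, 4311 and 5159 CPM (lowest, median, highest) at E19 and 849, 889.7 and 1001 at P4, with Pou3f3 the most abundant gene at both. The astrocyte and radial glia sum had 2147, 2433 and 3103 and then 3789, 5129.5 and 6823 CPM, led by Fabp7 at E19 and Slc1a3 at P4, and the oligodendrocyte lineage sum 501, 606 and 743 and then 632, 1923 and 3009, led by Olig1 and then Pdgfra. No gene of these 3 lists was at 0 in all libraries of either stage. In the remaining lists 3 of 9 deep-layer genes were called (1 up, 2 down), 5 of 10 interneuron genes (3 up, 2 down), 4 of 5 intermediate progenitor genes (1 up, 3 down), 5 of 8 cell cycle genes (5 up) and 3 of 9 microglia genes (2 up, 1 down). Vascular and other lists were mostly higher at P4: 9 of 10 endothelial genes, 3 of 6 mural genes, 6 of 7 ependymal genes and 5 of 5 erythroid genes were up, and of leptomeningeal fibroblast genes 0 of 3 tested were called by edgeR, with 1 at an unadjusted p under 0.05. Neuronal genes outside the lists, chosen after their values were seen, were lower as well, with means of 1503, 503 and 221 CPM at E19, P4 and P7 for Tubb3, 864, 558 and 412 for Map2, 1198, 238 and 92.9 for Dcx, 652, 20.6 and 5.84 for Neurod2 and 564, 40.9 and 7.01 for Neurod6. The part of these cell types in the fall of the guidance genes was not tested.

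**Figure D2:**
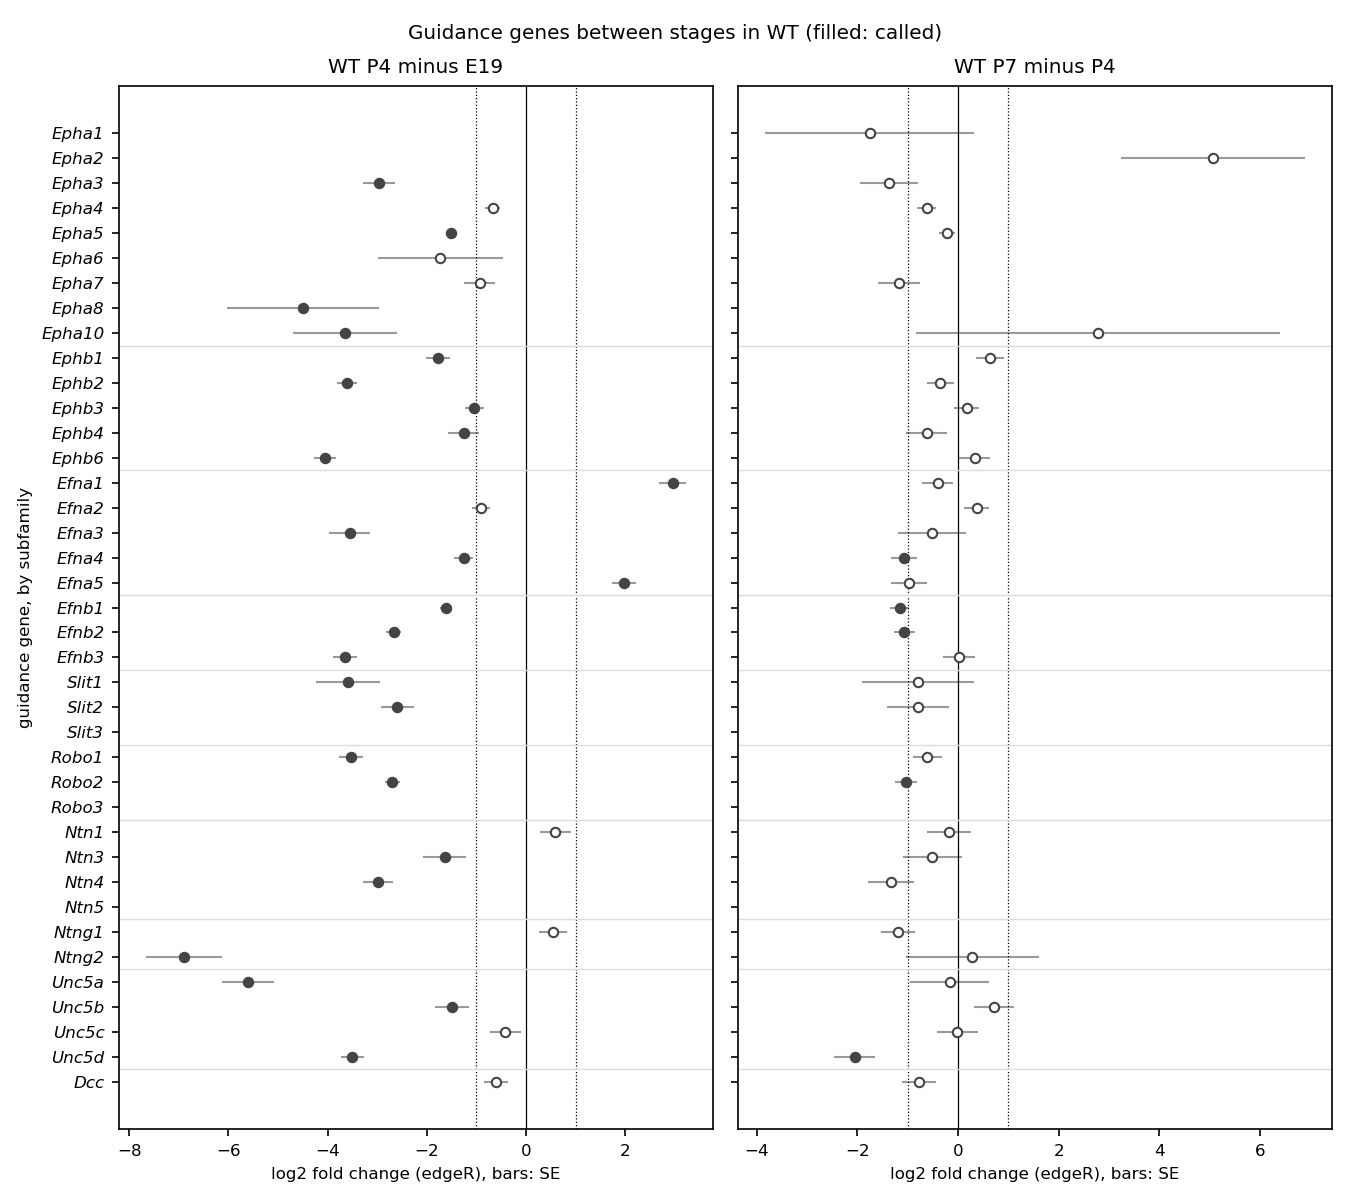
log2FC between stages in WT (edgeR, bars are SE) for the guidance genes by family, with filled points for called genes, open points for the others, dotted lines at the fold threshold of 1 and no point where a gene did not pass the filter. From E19 to P4, 24 genes fell and 2 (Efna1 and Efna5) rose, and from P4 to P7 5 genes fell.

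**Figure D3:**
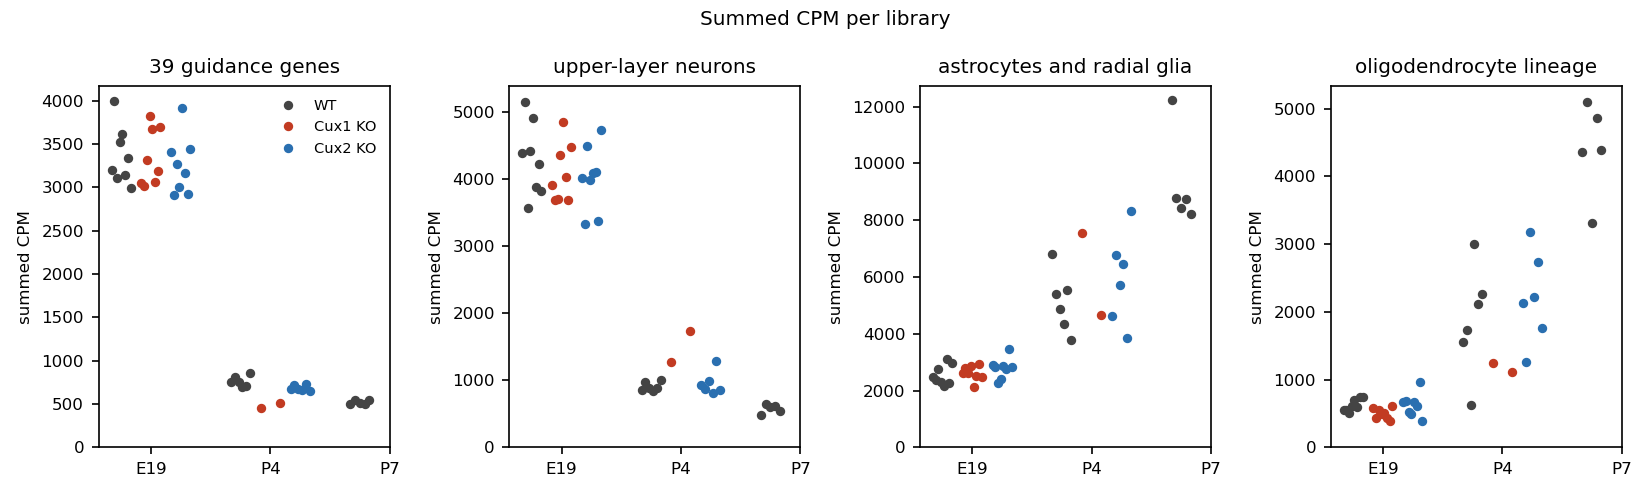
Summed CPM of the 39 guidance genes and of 3 lists of marker genes against stage; each point is 1 library, coloured by genotype. The guidance sum and the upper-layer sum are lower at P4 and P7 than at E19, and the astrocyte and radial glia sum is higher. The oligodendrocyte lineage sum is higher at P7, and P4 overlaps E19 through WT P4 female 3.

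From P4 to P7, stages sequenced in the same round, 5 guidance genes fell in WT. edgeR called these 5 of 34 members tested, 5 down and 0 up, against 2.05% of 22385 genes, and 14 members had an unadjusted p under 0.05, as did 22.03% of all genes. The median log2FC of the members was −0.56 against 0.02 over all genes tested. Unc5d had 2.11 and 8.20 CPM in the 2 P7 females and 8.59, 5.37 and 4.58 in the 3 males, below all P4 libraries, where it was at 11.6 to 36.7, and its log2FC was −2.05 ± 0.40 (SE, edgeR adjusted p = 0.0184). Robo2 had 56.00 and 27.4 CPM in P7 females and 31.5, 25.6 and 41.1 in males against 62.2 to 90.7 at P4, with a log2FC of −1.03 ± 0.21 (SE, edgeR adjusted p = 0.0206). Robo2 did not overlap between the stages either. The ligands Efnb1, Efnb2 and Efna4 were the other 3. Efnb1 had 31.7 and 21.6 CPM in P7 females and 29.6, 18.1 and 27.6 in males against 44.5 to 71.4 at P4, a log2FC of −1.16 ± 0.19 (SE, edgeR adjusted p = 0.00896) without overlap. Efnb2 had 28.6 and 29.7 and 31.2, 15.9 and 21.4 CPM against 29.3 to 65.4, and Efna4 2.90 and 3.21 and 8.23, 4.66 and 4.33 against 6.31 to 11.7, with log2FCs of −1.06 ± 0.21 (SE, edgeR adjusted p = 0.0188) and −1.07 ± 0.26 (SE, edgeR adjusted p = 0.0381). Both overlapped between the stages. Efna1, which had risen by P4, had 11.4 and 5.97 CPM in P7 females and 10.7, 7.49 and 20.8 in males and gave −0.40 ± 0.30 (SE, edgeR adjusted p = 0.506), and Ephb1 gave 0.64 ± 0.27 (SE, edgeR adjusted p = 0.200).

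This count rested on single libraries and on the tool. It was 3 without WT P4 male 2, WT P4 male 3 or WT P7 female 1, 2 without WT P7 female 2 and 1 without WT P7 male 2, where 359, 501, 277, 244 and 223 of all genes were called in turn against 459 with all libraries, and DESeq2 called 10 of 35 members without its prior, against 3.95% of all genes, and 4 with it, against 1.89%. Of the 5, Efna4, Efnb2 and Robo2 were not called by DESeq2 with its prior, and Efna4, Robo2 and Unc5d were not called by edgeR with all groups in 1 fit. Efnb1 was called without each library in turn, at edgeR adjusted p values of 0.0136 to 0.0341, and Unc5d lost its call without WT P7 male 2 (adjusted p = 0.0548). Efnb2 lost it without 4 libraries (WT P4 male 2, WT P7 female 1, female 2 and male 2, adjusted p up to 0.0594), Robo2 without 5 (WT P4 male 2 and male 3, WT P7 female 2, male 1 and male 2, up to 0.0588) and Efna4 without 9 of 11, kept by the removal of WT P4 female 3 or WT P7 male 1. Over the same interval microglia genes rose (8 of 9 up), as did 4 of 9 oligodendrocyte lineage genes and 2 of 11 astrocyte and radial glia genes. Of all genes tested 1.42% were up and 0.630% down. The upper-layer sum fell from 849 to 1001 CPM over the P4 libraries to 491 to 651 over those of P7, without overlap. So did the cell cycle sum, from 1238 to 1804 CPM to 498 to 1033. Their part in the result was not tested. Of the partner lists, 3 of 31 Eph effectors were called, against 2.05% of all genes, and no Slit and Robo or netrin partner. They were Grb10 at −1.47 ± 0.22 (SE, edgeR adjusted p = 0.00717), Chn2 at 1.24 ± 0.30 (SE, edgeR adjusted p = 0.0418) and Ngef, an exchange factor that acts downstream of EphA receptors, at 1.22 ± 0.23 (SE, edgeR adjusted p = 0.0156).

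The sexes were compared within WT at each stage. At E19 edgeR called 0 of 33 members (2 at an unadjusted p under 0.05, DESeq2 0), against 0.0461% of 17344 genes. The smallest p was that of Ntng2, at 100.4, 104, 72.8 and 141 CPM in females and 80.1, 76.5, 69.3 and 79.8 in males, groups that overlap, with a log2FC of 0.43 ± 0.15 (SE, edgeR adjusted p = 0.992) and an unadjusted edgeR p of 0.0144. At P4 edgeR called 0 of 31 (2 at an unadjusted p under 0.05, DESeq2 1, with its prior 0), against 0% of 19213 genes. The smallest edgeR adjusted p of any gene there was 0.0602, so no gene was called, sex-linked ones included. The study, by DESeq2, found Xist and Y-linked genes to differ at this stage. The count of 0 members thus cannot tell whether the sexes differ in them. Efna1 was lower in each female library, at 10.96, 6.29 and 10.5 CPM against 18.97, 18.3 and 23.4 in males, with a log2FC of −1.13 ± 0.30 (SE, edgeR adjusted p = 0.675) and an unadjusted edgeR p of 0.00842, and it was the member called by DESeq2. Endothelial genes summed to 59.1, 75.9 and 57.3 CPM in these females against 178, 117 and 238 in males. Mural genes summed to 110, 141 and 178 against 419, 248 and 298. Oligodendrocyte lineage and leptomeningeal sums were also lower in females without overlap. Those of intermediate progenitor, interneuron and cell cycle genes were higher without overlap. The part of these cell types in the result was not tested. At P7 edgeR called 0 of 32 (1 at an unadjusted p under 0.05, DESeq2 0), against 0.0247% of 20271 genes. The smallest p was that of the receptor Epha7, at 10.6 and 6.31 CPM in females and 17.3, 13.1 and 15.1 in males, without overlap, with a log2FC of −0.85 ± 0.33 (SE, edgeR adjusted p = 1.000) and an unadjusted edgeR p of 0.0430. The X-linked ligand Efnb1 was at 168, 189.7, 202 and 199 CPM in females and 148, 190.1, 171 and 153 in males at E19, which overlap, with a log2FC of 0.18 ± 0.10 (SE, edgeR adjusted p = 0.992). The median log2FC of the members was 0.06 at E19, −0.07 at P4 and −0.03 at P7, against 0.00, −0.01 and −0.01 over all genes tested. Of all genes 3.67%, 7.28% and 4.36% had an unadjusted edgeR p under 0.05. DESeq2 called 0.0440%, 0.844% and 0.258% of all genes without its prior.

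The study asked what loss of each CUX factor does to L2/3 neurons of either sex. In Cux1 KO at E19 the summed level of the 39 was 3355 ± 330.1 CPM (SD, n = 8) against 3364 ± 330.5 in WT. With both sexes edgeR called 0 of 35 members (7 at an unadjusted p under 0.05, DESeq2 2, with its prior 0), against 0.24% of 18318 genes. In females it called 0 of 34 (7 at an unadjusted p under 0.05, DESeq2 1, with its prior 0), against 0.0576% of 17376 genes, and in males 0 of 33 (6 at an unadjusted p under 0.05, DESeq2 0), against 0.0979% of 17362 genes. The median log2FC of the members was −0.11 with both sexes, −0.11 in females and −0.07 in males, against 0.00, 0.01 and −0.01 over all genes tested. Of all genes 12.6%, 6.87% and 10.4% had an unadjusted edgeR p under 0.05. DESeq2 called 0.416%, 0.156% and 0.381% of all genes without its prior.

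The members described for Cux1 KO at E19 are Dcc and the netrin-G genes. Dcc was at 47.7, 50.8, 63.6 and 69.2 CPM in Cux1 KO females and 64.3, 57.7, 60.7 and 63.04 in males, against 45.1, 53.8, 41.4 and 49.3 in WT females and 47.8, 52.2, 42.6 and 42.1 in males. In males each KO library was above each WT library, while the females overlapped. Its log2FC was 0.34 ± 0.08 (SE, edgeR adjusted p = 0.0546) with both sexes and 0.38 ± 0.10 (SE, edgeR adjusted p = 0.239) in males, where it had the smallest unadjusted edgeR p, 0.00164. These log2FCs are under the fold threshold of 0.5, and Dcc stayed uncalled whichever library was left out. Ntng2 was at 71.6, 59.6, 52.9 and 74.04 CPM in Cux1 KO females and 69.8, 60.2, 47.1 and 73.9 in males, against 100.4, 104, 72.8 and 141 and 80.1, 76.5, 69.3 and 79.8 in WT. The KO libraries were low and overlapped WT in both sexes. It gave log2FCs of −0.50 ± 0.12 (SE, edgeR adjusted p = 0.0608) with both sexes and −0.69 ± 0.16 (SE, edgeR adjusted p = 0.304) in females at an unadjusted edgeR p of 0.000944. In females it was called without WT female 3, at an edgeR adjusted p of 0.0242, with no filter and by DESeq2. With both sexes Ntng2 was called, as the 1 member, without Cux1 KO male 1 or without WT female 3. Ntng1 gave −0.68 ± 0.18 (SE, edgeR adjusted p = 0.0962) with both sexes. The marker genes Epha4, Robo1 and Unc5d gave log2FCs of 0.10, 0.14 and −0.02, at adjusted p values of 0.587, 0.540 and 0.953 by edgeR. Intermediate progenitor genes summed to 869, 966, 939 and 970 CPM in Cux1 KO females against 784, 683, 807 and 675 in WT, without overlap. In males they summed to 682, 891, 913 and 891 against 602, 761, 637 and 810, with overlap. The part of these cells in the result was not tested.

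In Cux1 KO males at P4 several ligands were close to 0 in both libraries. These cells also differed from WT in the plasmids, Cre among them, and in the floxed over deleted Cux1 alleles of the animal. Such differences cannot be told apart from loss of Cux1. The summed level of the 39 genes was 449 and 517 CPM against 694, 712 and 862 in WT males, without overlap. edgeR called 0 of 31 members (9 at an unadjusted p under 0.05, as were 20.5% of all genes), as it called 0% of 19601 genes. This count thus cannot tell whether members differ. DESeq2 called 8 of 38 members, 7 down and 1 up, against 11.9% of all genes, and 7 with its prior, against 8.36%. The median log2FC of the members was −0.98 against −0.18 over all genes tested. Netrin-1 (Ntn1) was at 0.100 and 0.0463 CPM in the 2 Cux1 KO libraries, 4 counts in all, against 12.4, 10.8 and 15.7 in WT. Ntn4, a netrin of basement membranes, was at 0.0502 and 0.0232 CPM (2 counts in all) against 7.03, 3.49 and 7.35. Slit2 was at 0 and 0.0232 CPM (1 count in all) against 4.03, 3.67 and 8.81. All 3 ligands were far below each WT library. Over pooled counts Ntn1 was 211-fold (exact 95% interval 82.2 to 775) lower in Cux1 KO, Ntn4 199-fold (exact 95% interval 54.9 to 1645) and Slit2 375-fold (exact 95% interval 67.1 to 14821), with intervals by the Clopper-Pearson method. These intervals cover counting error only, not the spread between libraries. The receptor Unc5b had 0 counts in both Cux1 KO libraries and 3.85, 2.23 and 4.92 CPM in WT, at least 82.1-fold lower against a floor of 3 counts over the group, and Slit1, also at 0 in both, was at 2.59, 3.16 and 0 CPM in WT, at least 34.6-fold lower over the group although WT male 3 had no counts either. With these 2 genes at their bounds the median stayed at −0.98. The smallest unadjusted edgeR p was that of Ntn1, 0.000266 (adjusted p = 0.0764). The ligand Efna3 went the other way, at 4.37 and 14.6 CPM against 0.989, 1.37 and 1.01, and Efna4 was at 0.653 and 2.25 against 9.85, 9.16 and 11.7, with edgeR adjusted p values of 0.119 and 0.144.

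Of the marker genes, Unc5d was at 0 and 13.3 CPM in Cux1 KO males and 27.9, 11.6 and 36.7 in WT, Robo1 at 5.42 and 10.8 against 10.3, 33.4 and 30.1, and Epha4 at 102 and 70.8 against 117, 85.9 and 199.9. All 3 overlapped WT, with adjusted p values of 0.648, 0.293 and 0.437 by edgeR. The 2 Cux1 KO libraries also stood apart in markers of other cells. Their 10 endothelial genes summed to 13.2 and 35.1 CPM against 178, 117 and 238 in WT males, with Cldn5 the most abundant and Emcn, Robo4 and Tek at 0 in both. The 6 mural genes summed to 0.251 and 53.3 against 419, 248 and 298 (most abundant Rgs5, Kcnj8 at 0 in Cux1 KO) and the 7 ependymal genes to 4.17 and 2.76 against 51.7, 129 and 127 (most abundant Cfap126 in Cux1 KO and Dynlrb2 in WT, Foxj1 and Pifo at 0 in Cux1 KO). Upper-layer genes were at 1281 and 1736 CPM against 849, 893 and 1001, led by Mef2c in Cux1 KO and Pou3f3 in WT. Below all WT males were also the sums of intermediate progenitor genes, at 77.2 and 124 CPM against 406, 363 and 248 (most abundant Btg2, Eomes and Neurog2 at 0 in Cux1 KO), and of oligodendrocyte lineage genes, at 1242 and 1107 against 3009, 2112 and 2271 (most abundant Pdgfra, Mog at 0 in Cux1 KO). So were the sums of interneuron genes, at 178 and 323 against 476, 799 and 634 (most abundant Npy in Cux1 KO and Dlx6os1 in WT, Slc32a1 at 0 in Cux1 KO and Lhx6 in WT), and of cell cycle genes, at 942 and 365 against 1238, 1399 and 1436 (most abundant Top2a). Sums of deep-layer, astrocyte and radial glia, leptomeningeal and erythroid genes overlapped, and that of microglia genes is not given. The neuronal gene Neurod2 was at 87.8 ± 2.60 CPM (SD, n = 2) against 17.3 ± 5.27 (n = 3), and Tubb3, Map2 and Dcx were also above all WT males, whereas Neurod6 overlapped. These genes were chosen after the values were seen. In these lists edgeR called 0 genes, as in the whole table, while 4 of 10 endothelial, 3 of 6 mural, 7 of 7 ependymal, 5 of 10 upper-layer, 4 of 5 intermediate progenitor, 5 of 9 oligodendrocyte lineage, 6 of 10 interneuron, 3 of 8 cell cycle and, of 8 tested, 3 microglia genes had an unadjusted p under 0.05, against the 20.5% of all genes. Their part in the low ligand counts was not tested. Without Cux1 KO male 2 edgeR called Ntn1 (adjusted p = 0.0442) and no other member, with 2.85% of all genes called, and the remaining mutant library is then assumed to vary like the WT libraries.

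**Figure D4:**
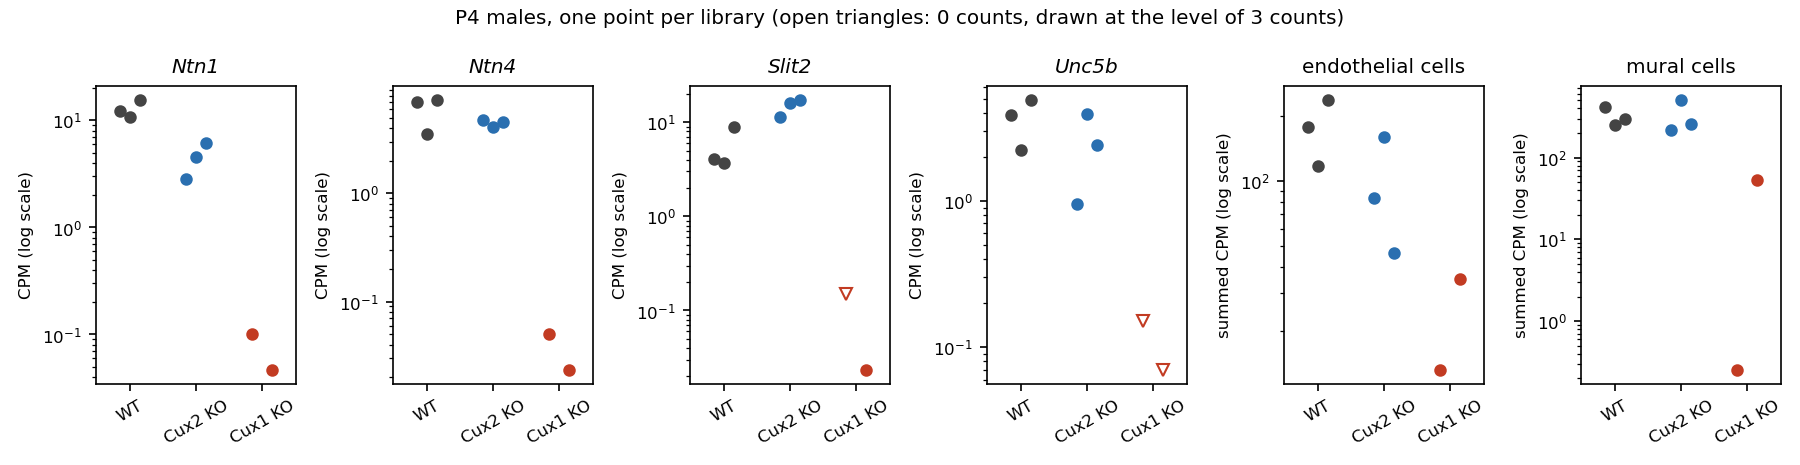
CPM of 4 guidance genes and summed CPM of endothelial and mural marker genes, on log scales, in P4 males; each point is 1 library, black WT, blue Cux2 KO and red Cux1 KO, and open triangles are libraries with 0 counts, drawn at the level of 3 counts. In all 6 panels the 2 Cux1 KO libraries lie below the 3 WT libraries.

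In Cux2 KO at E19, compared with the same WT libraries as Cux1 KO, the summed level of the 39 genes was 3254 ± 336 CPM (SD, n = 8). With both sexes edgeR called 0 of 35 members (4 at an unadjusted p under 0.05, DESeq2 0), against 0.109% of 18356 genes. It called 0 of 34 in females (4 at an unadjusted p under 0.05, DESeq2 1, also with its prior), against 0.0287% of 17436 genes, and 0 of 33 in males (6 at an unadjusted p under 0.05, DESeq2 0), against 0.121% of 17332 genes. The median log2FC of the members was 0.07 with both sexes, −0.03 in females and 0.09 in males, against 0.00, 0.01 and −0.01 over all genes tested. Of all genes 8.75%, 4.62% and 7.94% had an unadjusted edgeR p under 0.05. DESeq2 called 0.217%, 0.0996% and 0.314% of all genes without its prior, and 0.0730% in females with it. Epha8 had the smallest p in females, at 4.77, 9.61, 5.46 and 6.62 CPM in Cux2 KO against 1.98, 2.64, 2.10 and 3.83 in WT. The KO libraries were above all 4 WT libraries, at a log2FC of 1.34 ± 0.30 (SE, edgeR adjusted p = 0.485) with an unadjusted edgeR p of 0.000642, and it was the gene called by DESeq2. In Cux2 KO males Epha8 was at 0.978, 4.99, 5.25 and 10.3 CPM against 5.71, 3.77, 6.08 and 1.43, which overlap. Ephb3, a receptor for ephrin-B, had the smallest p in males and with both sexes. It was at 46.8, 46.1, 55.4 and 60.2 CPM in Cux2 KO males against 38.1, 41.8, 33.02 and 34.7, without overlap, and at 44.6, 39.9, 30.3 and 42.1 in Cux2 KO females against 33.7, 37.7, 38.1 and 37.4, with overlap. Its log2FC was 0.48 ± 0.13 (SE, edgeR adjusted p = 0.412) in males and 0.30 ± 0.10 (SE, edgeR adjusted p = 0.370) with both sexes, at unadjusted edgeR p values of 0.00259 and 0.00754. Epha4, Robo1 and Unc5d gave log2FCs of −0.05, −0.01 and −0.21 with both sexes, at adjusted p values of 0.933, 0.994 and 0.594 by edgeR. Unc5d was lower in each Cux2 KO female library, at 247, 161, 243 and 197 CPM against 272, 344, 248 and 299.8 in WT, with a log2FC of −0.44 ± 0.14 (SE, edgeR adjusted p = 0.768).

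At P4 Cux2 KO libraries summed to 687 ± 32.8 CPM over the 39 genes (SD, n = 6) against 765 ± 62.7 in WT (n = 6). With both sexes edgeR called 0 of 35 members (3 at an unadjusted p under 0.05, DESeq2 0), against 0.0503% of 21878 genes. It called 0 of 33 in females (5 at an unadjusted p under 0.05, DESeq2 1, also with its prior) and 0% of 19538 genes, and 0 of 32 in males (3 at an unadjusted p under 0.05, DESeq2 1, with its prior 0) and 0% of 19720 genes. With 0 of all genes called within either sex, these counts cannot tell whether members differ. The median log2FC of the members was −0.16 with both sexes, −0.02 in females and −0.38 in males, against 0.02, 0.02 and 0.00 over all genes tested. Of all genes 6.28%, 7.39% and 5.76% had an unadjusted edgeR p under 0.05. DESeq2 called 0.345%, 0.602% and 1.25% of all genes without its prior, and 0.141% in females with it. The ligand Efnb1 had the smallest p with both sexes, at 32.4, 33.9 and 29.4 CPM in Cux2 KO females and 52.3, 33.1 and 41.1 in males against 44.5, 71.4 and 58.4 and 49.01, 53.03 and 67.5 in WT. In females each KO library was below each WT library and in males they overlapped, and the log2FC was −0.65 ± 0.16 (SE, edgeR adjusted p = 0.466) at an unadjusted edgeR p of 0.00191. Epha3 was at 12.6, 19.3 and 14.1 CPM in Cux2 KO females against 32.1, 32.9 and 57.7, also without overlap, at a log2FC of −1.42 ± 0.30 (SE, edgeR adjusted p = 0.451) and an unadjusted edgeR p of 0.00228, and DESeq2 called it. In males Ntn1 was at 2.81, 4.57 and 6.20 CPM in Cux2 KO against 12.4, 10.8 and 15.7 in WT. The KO libraries were again below all WT libraries, at a log2FC of −1.53 ± 0.39 (SE, edgeR adjusted p = 0.438) and an unadjusted edgeR p of 0.00703, and DESeq2 without its prior called it. Ntn1 in females was at 8.80, 8.05 and 7.87 CPM in Cux2 KO and 2.73, 9.67 and 9.01 in WT, which overlap. Marker sums stood apart as well, without overlap. In females mural genes summed to 354, 392 and 371 CPM in Cux2 KO against 110, 141 and 178 in WT. Intermediate progenitor genes summed to 352, 368 and 401 against 514, 495 and 608, and the interneuron sum was lower too. In males ependymal genes summed to 370.0, 212 and 362 against 51.7, 129 and 127. The part of these cell types in the result was not tested. The marker genes Epha4, Robo1 and Unc5d gave log2FCs of −0.06, −0.37 and −0.29 with both sexes, at adjusted p values of 1.000, 0.955 and 0.993 by edgeR.

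The mutants were also compared with each other, which brings in no WT library. At E19, with both sexes, 4 of 36 members were higher in Cux2 KO than in Cux1 KO and none lower, against 2.98% of 18356 genes called by edgeR, and 14 members had an unadjusted p under 0.05, as did 20.7% of all genes. The median log2FC was 0.09 against 0.01 over all genes tested. Ntng1, which binds Lrrc4c across the synapse, was at 12.7, 6.76, 7.53 and 5.37 CPM in Cux2 KO females and 7.21, 7.42, 9.65 and 7.998 in males, against 3.93, 2.49, 4.79 and 4.65 and 3.46, 4.78, 6.39 and 3.27 in Cux1 KO. The ranges overlapped, and the log2FC was 0.95 ± 0.19 (SE, edgeR adjusted p = 0.00781). Unc5c was at 24.4, 21.6, 18.6 and 26.6 CPM in Cux2 KO females and 36.2, 21.1, 17.9 and 31.04 in males against 15.4, 11.2, 13.6 and 11.2 and 28.5, 11.03, 8.44 and 18.2 in Cux1 KO, with overlap through Cux1 KO males 1 and 4, and its log2FC was 0.77 ± 0.20 (SE, edgeR adjusted p = 0.0322). Ntn1 was at 8.68, 19.3, 5.56 and 3.75 CPM in Cux2 KO females and 8.61, 8.53, 8.16 and 7.998 in males against 4.39, 3.24, 4.11 and 4.09 and 3.18, 2.39, 6.27 and 6.48, with a log2FC of 1.06 ± 0.27 (SE, edgeR adjusted p = 0.0292). Cux2 KO female 2 was the highest Ntn1 library and females 3 and 4 lay within the Cux1 KO range. Epha8 was at 4.77, 9.61, 5.46 and 6.62 CPM in Cux2 KO females and 0.978, 4.99, 5.25 and 10.3 in males against 2.29, 3.11, 1.30 and 0.744 and 3.80, 3.31, 2.48 and 1.51, with a log2FC of 1.39 ± 0.37 (SE, edgeR adjusted p = 0.0341), and Cux2 KO male 1 lay within the Cux1 KO range. Side by side against the shared WT libraries, Ntng1 had log2FCs of −0.68 in Cux1 KO and 0.27 in Cux2 KO, Unc5c −0.47 and 0.30, Ntn1 −0.62 and 0.43, and Epha8 −0.57 and 0.82. edgeR called none of these 8 differences, and DESeq2 without its prior called that of Ntng1 in Cux1 KO.

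Ephb3 and Ntng2 passed the adjusted p in this comparison, at 0.42 ± 0.10 (SE, edgeR adjusted p = 0.0203) and 0.48 ± 0.12 (SE, edgeR adjusted p = 0.0212), but not the fold threshold of 0.5 on the log2 scale. Ntng1 was called without each of the 16 libraries in turn, at edgeR adjusted p values of 0.00438 to 0.0196. The count of called members was 1 without Cux1 KO female 3 or male 2 and 2 without Cux1 KO female 2, female 4 or male 3 or without Cux2 KO female 2, female 4 or male 4, whereas it was 6, with Efna1 and Slit1, without Cux2 KO female 3. The count over all genes ran from 331 (without Cux1 KO male 2) to 664 (without Cux2 KO male 2), against 547 with all libraries. Unc5c lost its call without 11 libraries (Cux1 KO females 2, 3 and 4 and males 2, 3 and 4, Cux2 KO females 1, 2 and 4 and males 1 and 4, adjusted p up to 0.0747) and Epha8 without 10 (Cux1 KO females 1, 3 and 4 and males 2, 3 and 4, Cux2 KO females 2 and 4 and males 3 and 4, up to 0.0953). Ntn1 lost it without 6 (Cux1 KO females 1 to 4 and male 2, Cux2 KO female 2, up to 0.0647). With all groups in 1 fit Unc5c lost its call as well. With a block for replicate number Epha8 and Ntn1 lost theirs, and 2 members were called. The 7 ependymal genes summed to 12.2, 23.8 and 49.5 CPM (lowest, median, highest) in Cux1 KO and 12.5, 40.6 and 261 in Cux2 KO, with Foxj1 the most abundant in both and Tmem212 at 0 in Cux1 KO, and 5 of the 5 tested had an unadjusted p under 0.05 while edgeR called 0. The 5 intermediate progenitor genes summed to 682, 902 and 969.6 and 630.1, 716 and 759, led by Insm1, with 1 of 5 called, lower in Cux2 KO. Higher in Cux2 KO were 2 of 10 upper-layer genes, 1 of 10 interneuron genes and 1 of 9 oligodendrocyte lineage genes. Their part in the result was not tested. Of the partner lists, Ngef was higher in Cux2 KO at 1.32 ± 0.24 (SE, edgeR adjusted p = 0.00353) and so was the netrin partner Ablim1, an actin-binding protein, at 0.97 ± 0.20 (SE, edgeR adjusted p = 0.00993).

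At P4 the mutant males differed in 3 of 31 members, Ntn1, Ntn4 and Slit2, higher in Cux2 KO, against 2.98% of 19741 genes called by edgeR, and 7 members had an unadjusted p under 0.05, as did 24.9% of all genes. The median log2FC was 0.66, also with genes at 0 on 1 side set to their bounds, against 0.16 over all genes tested. Ntn1 was at 2.81, 4.57 and 6.20 CPM, Ntn4 at 4.78, 4.09 and 4.51 and Slit2 at 11.4, 16.2 and 17.5 in the 3 Cux2 KO males, against at most 0.100 CPM in the 2 Cux1 KO males. The groups did not overlap. Over pooled counts, with intervals by the Clopper-Pearson method, Ntn1 was 69.7-fold (exact 95% interval 27.1 to 257) higher, Ntn4 137-fold (exact 95% interval 37.8 to 1137) and Slit2 957-fold (exact 95% interval 171 to 37806), and each had an edgeR adjusted p of 0.0491. Here too the intervals cover counting error only, not the spread between libraries. Slit2 in Cux2 KO males was also above the WT males, at a log2FC of 1.44 ± 0.43 (SE, edgeR adjusted p = 0.584) against the WT libraries of the comparison above. Without Cux2 KO male 1, 2 or 3 edgeR called 0 members, at adjusted p values of these genes up to 0.135, and the count was 5 of 35 without Cux1 KO male 1 and 10 of 34 without Cux1 KO male 2, where 8.12% and 15.3% of all genes were called and the lone Cux1 KO library is assumed to vary like the Cux2 KO libraries. With no filter edgeR called 0 of all genes and lost these 3, at a smallest adjusted p of 0.0502. With a block for replicate number it called 0 of 31 members and 0 of 19741 genes. DESeq2 called 6 of 37 members with and without its prior, the 3 above with Efna4, Ntng1 and Unc5b, against 11.99% of all genes without its prior and 9.31% with it. The 7 ependymal genes, all called, summed to 370.0, 212 and 362 CPM in Cux2 KO males, led by Rsph1, against 4.17 and 2.76 in Cux1 KO, and the 6 mural genes, of which 1 was called, to 219.9, 513 and 257 against 0.251 and 53.3, led by Rgs5. Also higher without overlap in Cux2 KO were the sums of endothelial genes, at 82.8, 159 and 46.03 against 13.2 and 35.1 CPM (most abundant Cldn5, 0 of 9 tested called by edgeR), intermediate progenitor genes, at 528, 302 and 408 against 77.2 and 124 (led by Gadd45g in Cux2 KO and Btg2 in Cux1 KO, 1 of 5 called), oligodendrocyte lineage genes, at 2221, 2729 and 1759 against 1242 and 1107 (led by Pdgfra, 1 of 9), interneuron genes, at 772, 336 and 378 against 178 and 323 (led by Dlx1 in Cux2 KO and Npy in Cux1 KO, 0 of 10), and cell cycle genes, at 1262, 986 and 1539 against 942 and 365 (led by Top2a, 0 of 8). In the lists with 0 called, 2 endothelial, 3 interneuron and 2 cell cycle genes had an unadjusted p under 0.05. Genes at 0 in the Cux1 KO males are those named above. Sums of upper-layer, deep-layer, astrocyte and radial glia, leptomeningeal and erythroid genes overlapped. The neuronal genes Tubb3, Map2, Dcx, Neurod2 and Neurod6, chosen after their values were seen, were lower in Cux2 KO males without overlap. Neurod2 was at 14.8 to 34.5 CPM against 86.0 to 89.7 in Cux1 KO, and Map2 at 414 to 468 against 744 to 1062. Of 9 microglia genes, whose sum is not given, 3 were called, higher in Cux2 KO. Their part in the result was not tested. The Eph effector Chn1 and the actin regulator Evl were lower in Cux2 KO, at −1.10 ± 0.15 (SE, edgeR adjusted p = 0.0491) and −1.50 ± 0.21 (SE, edgeR adjusted p = 0.0491). The exchange factor Arhgef19, called as well, was at 0 in both Cux1 KO libraries and at 9.02 ± 2.34 (SD, n = 3) CPM in Cux2 KO.

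Whether the effect of a KO differs between the sexes was tested by the interaction of genotype and sex, given as the effect in males minus that in females. For Cux1 KO at E19 edgeR called 0 of 35 members (0 at an unadjusted p under 0.05, DESeq2 0) and 0% of 18318 genes, and the smallest p was that of Efna4, with a log2 difference of 0.43 ± 0.24 (SE) at an unadjusted edgeR p of 0.0843. For Cux2 KO at E19 it called 0 of 35 (3 at an unadjusted p under 0.05, DESeq2 0) and 0% of 18356 genes. Epha7 had the smallest p there, at 62.5, 63.3, 58.8 and 56.7 CPM in Cux2 KO females against 44.5, 51.4, 39.8 and 48.1 in WT females and 50.2, 58.04, 51.6 and 53.5 in Cux2 KO males against 64.3, 49.4, 50.2 and 54.7 in WT males. The females did not overlap and the males did, with a difference of −0.46 ± 0.15 (SE) at an unadjusted edgeR p of 0.00547. For Cux2 KO at P4 edgeR called 0 of 35 (4 at an unadjusted p under 0.05, DESeq2 2) and 0% of 21878 genes. Efna1 was at 15.5, 21.6 and 21.2 CPM in Cux2 KO females against 10.96, 6.29 and 10.5 in WT, and at 17.5, 16.3 and 17.5 in Cux2 KO males against 18.97, 18.3 and 23.4. Females were higher in the KO and males lower, each without overlap, and the difference was −1.32 ± 0.34 (SE) at an unadjusted edgeR p of 0.00272 and an edgeR adjusted p of 0.629. DESeq2 called this gene. Slit2, the other gene called by DESeq2, was at 7.83, 13.6 and 11.03 CPM in Cux2 KO females against 19.7, 10.7 and 17.6 in WT, and at 11.4, 16.2 and 17.5 in males against 4.03, 3.67 and 8.81, with a difference of 2.00 ± 0.55 (SE) and an edgeR adjusted p of 0.639. In the same libraries mural genes summed to 354, 392 and 371 CPM in Cux2 KO females against 110, 141 and 178 in WT, without overlap. In males they summed to 219.9, 513 and 257 against 419, 248 and 298, with overlap. The part of mural and other cells in these differences was not tested. The median difference over the members was 0.09, 0.08 and −0.08 in these comparisons, against −0.01, −0.01 and −0.03 over all genes tested. Of all genes 3.81%, 3.78% and 7.27% had an unadjusted edgeR p under 0.05. DESeq2 called 0%, 0% and 0.864% of all genes. As edgeR called no gene in any of these comparisons, its counts of 0 members cannot tell whether the effects differ between the sexes.

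Some members share annotated exon with other genes, and the strand setting of the counting is not stated, so their counts are uncertain. The longest overlaps were 1456 bases of Epha1 with Zyx, 1112 of Ephb6 with Trpv6, 780 of Epha10 with Gm70061, 769 of Ntn5 with Sec1, 759 of Efna3 with Gm15998, 755 of Robo1 with Gm29908 and 702 of Efnb2 with Gm45075. Shorter ones involved Ephb2 (636 bases) and Ntng2 (558 bases). The marker genes lie on chromosomes 1 (Epha4), 16 (Robo1, 72105194 to 72844378) and 8 (Unc5d) of GRCm39. Robo1 and Efnb2 lie mostly outside these stretches, with exon lengths of 18165 and 7243 bases.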

How the data were processed

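The authors deposited raw counts of 56980 genes in 43 libraries of GFP+ sorted cells. They aligned reads to GRCm39 with hisat2, with the Y chromosome masked for females and its pseudoautosomal region for males. Duplicate reads were removed only past a set threshold. Primary alignments were then counted per Ensembl gene with featureCounts. The strand setting is not stated. No molecular identifiers were used, so that intervals and floors cover counting error only.

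For this text, genes were tested with edgeR 4.0.16 in R 4.3.3 (TMM, filterByExpr, quasi-likelihood F test) within the libraries of each comparison, with sex as a covariate where both sexes were used and genotype by sex for interactions. P values were adjusted by the Benjamini-Hochberg method over all genes tested. A gene was called at an adjusted p under 0.05 and an absolute log2FC over 0.5 at E19, or over 1 at P4, at P7 and between stages, and interactions at an adjusted p under 0.05 alone. The scripts were tested on simulated data. Alternatives were DESeq2, the package the authors used (here 1.42.0), with and without its prior, DESeq2 size factors in edgeR, no filter, all groups in 1 fit, a replicate block and leaving out each library in turn. Pairing was not used, because no label ties same-numbered libraries of different groups.

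Members are protein-coding genes whose symbols match the Eph receptor, ephrin, Slit, Robo, netrin, netrin-G, Unc5 and Dcc families. Coordinates and exon lengths were taken from the GENCODE M39 annotation, where 56236 of 56980 genes had an entry. The members, 13 lists of cell type markers (neurons of upper and deep layers, interneurons, intermediate progenitors, dividing cells, astrocytes with radial glia, oligodendrocyte lineage, microglia, endothelium, mural cells, leptomeninges, ependyma and erythroid cells) and 3 partner lists (Eph effectors, Slit and Robo partners, netrin partners) were chosen with earlier results of these data known. Anks1a was not found by symbol, which left 31 Eph effectors. Values per library, or the lowest, median and highest, are given for called members, where more than 12 were called for the 6 of largest absolute log2FC in each direction. For Cux1, Cux2, Epha4, Robo1 and Unc5d such values are given in some comparisons, and for Epha4, Robo1 and Unc5d log2FCs alone in others. The member of highest and of lowest length-scaled WT level in each family, the member of smallest unadjusted p where none was called, and up to 4 called genes per partner list and comparison are also named. Tubb3, Map2, Dcx, Neurod2 and Neurod6, and other members singled out in the text, were chosen after their values were seen. Folds against a group at 0 use a floor of 3 counts over the group.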

Additional observations from a re-analysis of the deposited data

Results flagged for a closer look

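Cux1, Cux2 and the guidance genes other than Epha2 and Epha6, 39 genes in all, were looked at in the 6 E19 groups of 4 libraries. The search was for a library far from the other 3 (a Dixon ratio above its 95% critical value). Of 234 pairs of gene and group 12 had such a library, where chance gives about 1 in 20.

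Robo1 was at 485 CPM in Cux2 KO E19 male 1, against at most 261 in the other 3. Robo2 was at 656 CPM in WT E19 female 2, against at most 443. The ligand Efna1 was at 6.91 CPM in Cux2 KO E19 female 4, against at most 2.14, and at 2.97 in WT E19 male 1, against at most 1.50. Ephb3 was low in WT E19 female 1, at 33.7 CPM against at least 37.4. Cux1 KO E19 female 3 was high for Slit1, at 37.4 CPM against at most 26.9, and for Unc5b, at 9.46 against at most 6.55. Unc5a was at 94.9 CPM in WT E19 male 3, against at most 86.9. Scarce members made up the rest: Robo3 was at 0.628 CPM in WT E19 male 2, against at most 0.143. Ntn5 was at 0 in the other libraries of its groups and at 0.225 CPM (4 counts) in Cux1 KO E19 female 3, 0.189 (3 counts) in Cux1 KO E19 male 4 and 0.0784 (1 count) in WT E19 male 2.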

How the results depend on the processing

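With DESeq2 in place of edgeR the number of guidance genes called was 10 for WT P7 against P4, 1 for WT females against males at P4, 1 for Cux1 KO females at E19, 2 for Cux1 KO at E19 with both sexes, 8 for Cux1 KO males at P4, 1 for Cux2 KO females at E19, 1 for Cux2 KO females and 1 for Cux2 KO males at P4, 6 for Cux2 KO against Cux1 KO males at P4 and 2 for Cux2 KO by sex at P4. With its prior it was 7 for Cux1 KO males at P4, 1 for Cux2 KO females at E19, 1 for Cux2 KO females at P4 and 6 between the mutants at P4. With no filter it was 1 for Cux1 KO females at E19 and 0 between the mutants at P4. With all groups in 1 fit it was 3 for WT P7 against P4, 6 for Cux1 KO males at P4 and 5 between the mutants at P4. These stand against 1.98%, 10.98% and 8.54% of all genes called in that fit. With no filter 0.209% of all genes were called for Cux1 KO females at E19 and 0% between the mutants at P4. The DESeq2 counts of 8 and 6 for the P4 males stand against 11.9% and 11.99% of all genes, those of 7 and 6 with its prior against 8.36% and 9.31%. The cause of these differences was not tested.

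With the replicate block the number called was 1 for Cux1 KO at E19 with both sexes, against 0.284% of all genes, 2 between the mutants at E19, where Epha8 and Ntn1 lost their calls, against 2.60%, and 0 between the mutants at P4, where 0 of 19741 genes were called. Deviations of same-numbered libraries from their group means were correlated at r over 0.1 in every pair only between WT females and males at P7 (2 pairs, r = 0.157 and 0.225), too few to pair the libraries. With the block edgeR called 0 members there (1 at unadjusted p under 0.05), and DESeq2 called 0 without the block.

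Leaving out 1 library at a time gave 25 to 28 members (8903 to 9687 of all genes) for WT P4 against E19 and 1 to 5 (223 to 501) for P7 against P4. It gave 0 to 1 for Cux1 KO females at E19 (2 to 30), 0 to 1 for Cux1 KO at E19 with both sexes (19 to 80) and 0 to 1 for Cux1 KO males at P4 (0 to 639). Between the mutants it gave 1 to 6 at E19 (331 to 664) and 0 to 10 at P4 (0 to 3351). Where 1 Cux1 KO library remained at P4, it is assumed to vary like the other group. In the other comparisons edgeR called 0 members without each library. Over all genes it then called 0 for WT females against males at P4, Cux2 KO females at P4 and the interactions at E19. For Cux2 KO males at P4 it called 0 to 1. In these comparisons counts of 0 members do not show stability. In each of the rest other genes were called in some of these fits.

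Of the other counts under these settings, 92 were within 1.5 times those reported, and 180 with a library left out. Of the log2FCs of named genes, none of which reversed, 286 kept their side of the threshold, 12 passed it newly and 20 no longer passed it, and with a library left out 594, 2 and 58 did.

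The limits are as follows. Stage cannot be told apart from sequencing round between E19 and P4. Cux1 KO at P4 rests on 2 male libraries and another allele than at E19. Loss of Cux1 at P4 cannot be told apart from the Cre and GFP plasmids used for it. Summed markers of other cell types in the GFP+ sorted cells differed between stages and between libraries, and the source of this RNA was not tested.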
